A study of Homo sapiens with 9 samples.

Results

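The genes described are 39 genes of glucose breakdown and of the response to low oxygen, measured in A2780 human ovarian carcinoma cells with and without the compound DIG-MSK. A gene's probes were taken where the array design lists them under a RefSeq transcript of that gene. Probes were found for 38 of the 39 genes, 48 probes in all, and 37 genes with 46 probes could be tested, out of 21813 genes on the arrays. ALDOA had no probe under the transcripts used for naming, and the probe of CA9 (NM_001216), which encodes a cell surface carbonic anhydrase, was not well above background on any of the 9 arrays. The genes fall into 5 roles, namely transport of glucose and lactate (3 genes), enzymes of glycolysis and lactate formation (17), control of glycolytic flux (4), hypoxia-inducible factors and the prolyl hydroxylases that act on them (4), and other targets of the hypoxia response (11).

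There were 3 groups of 3 cultures each, untreated cells and cells kept for 24 h with DIG-MSK, either at 8 nM or at 80 nM. A2780 is an established cell line, so all cultures are of 1 line. DIG-MSK is an analogue of mithramycin, an antibiotic that binds GC-rich DNA and hinders transcription factors such as Sp1 there. The question put by the design is which genes change their expression at either concentration. Every culture's RNA was labeled with 1 dye and put on its own array. Levels are given as the log2 of a probe's background-corrected intensity divided by the intensity at the 75th percentile of gene spots on that array, so 0 is the level of a fairly bright probe. Levels of different probes cannot be set against each other. Equal amounts of RNA were labeled, so less of a transcript per cell and fewer cells that hold it cannot be told apart.

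Slide 1 held the untreated and the 8 nM arrays, which were scanned at one time, and slide 2 held the 80 nM arrays, so any difference at 80 nM and a difference between slides cannot be told apart. The probes for KRT8, KRT18, KRT19, EPCAM, VIM and CDH2 were well above background on all 9 arrays. Those of CDH1, WT1 and MUC16, which mark many ovarian carcinomas, were not on any array. PECAM1, VWF and HBB, markers of endothelium and blood, were not well above background on any array, whereas PTPRC, CD14 and CDH5 were on all 9, with group means between -4.9 and -2.96. With the arrays scaled to 10 spike-in probes, the median over all genes of the 80 nM change moved from 0.08 to -0.20 on the log2 scale, and the share of called genes that were lower moved from 46.5% to 72.1%. Changes below are on the 75th percentile scale, and a call against untreated cells that the spike-in scale removes is named.

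Glycolysis splits glucose to pyruvate in the cytosol, and lactate dehydrogenase turns pyruvate to lactate, which leaves the cell through monocarboxylate carriers. When oxygen is low, prolyl hydroxylases no longer mark the alpha subunits of the hypoxia-inducible factors for breakdown, and these factors then bind a short core sequence in DNA and raise the transcription of glycolytic genes, of the glucose carrier, of angiogenic factors and of the prolyl hydroxylases themselves. Many tumour cells run glycolysis at a high rate with oxygen present.

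Since mithramycin analogues bind GC-rich DNA, the bases before the start of each gene were read from RefSeq (build GRCh38.p14) and searched on both strands for the GC box GGGCGG, the sequence to which Sp1 binds, and for the hypoxia cores ACGTG and GCGTG. The core ACGTG lies inside the palindrome CACGTG, the E-box, which is counted once on each strand. Of the 39 genes, 35 were in the table. A GC box was present in the 250 bases before the start of 26 of these (74.3%) and a hypoxia core in 23 (65.7%), where 42.3% and 43.1% of all 27305 genes in the table had one. Those 27305 were not limited to genes tested on the arrays. Their windows had a median GC content of 58.0%, against 69.6% for the 35, so the shares do not compare genes of like GC content. The windows of 8 genes are printed 5′ to 3′ on the coding strand, with GC boxes and hypoxia cores in capitals. They are shown because they span the responses described below: ENO2, HK2, SLC2A1, BNIP3 and PDK1 were lower at 80 nM, EPAS1 was higher, and GAPDH and PGK1 differed little. Their positions are ENO2 chr12:6914330-6914579 (plus strand), HK2 chr2:74833877-74834126 (plus strand), SLC2A1 chr1:42958869-42959118 (minus strand), BNIP3 chr10:131981924-131982173 (minus strand), PDK1 chr2:172555123-172555372 (plus strand), EPAS1 chr2:46297157-46297406 (plus strand), GAPDH chr12:6535014-6535263 (plus strand) and PGK1 chrX:78103998-78104247 (plus strand).
ENO2: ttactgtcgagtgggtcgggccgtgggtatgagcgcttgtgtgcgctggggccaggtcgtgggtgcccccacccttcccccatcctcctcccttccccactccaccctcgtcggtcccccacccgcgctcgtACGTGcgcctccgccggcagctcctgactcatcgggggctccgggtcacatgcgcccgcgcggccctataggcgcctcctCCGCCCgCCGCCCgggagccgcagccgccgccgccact
HK2: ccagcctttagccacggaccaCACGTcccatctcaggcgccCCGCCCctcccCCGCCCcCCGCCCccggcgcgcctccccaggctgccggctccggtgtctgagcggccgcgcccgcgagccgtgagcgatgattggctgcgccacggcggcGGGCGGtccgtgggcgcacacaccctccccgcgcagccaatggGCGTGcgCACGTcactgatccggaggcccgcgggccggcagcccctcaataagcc
SLC2A1: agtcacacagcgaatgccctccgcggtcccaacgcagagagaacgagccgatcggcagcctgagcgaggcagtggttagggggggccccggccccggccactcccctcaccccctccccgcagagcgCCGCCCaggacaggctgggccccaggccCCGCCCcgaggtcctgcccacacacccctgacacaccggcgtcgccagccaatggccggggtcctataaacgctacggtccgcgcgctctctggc
BNIP3: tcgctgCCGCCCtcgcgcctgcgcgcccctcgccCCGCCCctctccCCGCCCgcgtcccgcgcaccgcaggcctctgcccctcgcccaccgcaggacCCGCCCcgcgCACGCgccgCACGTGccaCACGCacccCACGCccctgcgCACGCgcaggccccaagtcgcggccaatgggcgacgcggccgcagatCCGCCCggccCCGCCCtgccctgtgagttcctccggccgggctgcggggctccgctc
PDK1: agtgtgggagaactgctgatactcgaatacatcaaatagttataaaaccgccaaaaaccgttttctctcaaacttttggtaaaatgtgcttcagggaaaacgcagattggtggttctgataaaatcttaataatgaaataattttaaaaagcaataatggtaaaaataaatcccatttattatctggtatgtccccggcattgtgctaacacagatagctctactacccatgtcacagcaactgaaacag
EPAS1: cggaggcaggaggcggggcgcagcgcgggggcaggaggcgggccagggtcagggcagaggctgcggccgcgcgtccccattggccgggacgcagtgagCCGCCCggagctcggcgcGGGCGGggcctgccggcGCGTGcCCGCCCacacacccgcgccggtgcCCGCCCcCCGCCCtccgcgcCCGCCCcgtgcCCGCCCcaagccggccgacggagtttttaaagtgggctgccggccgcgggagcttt
GAPDH: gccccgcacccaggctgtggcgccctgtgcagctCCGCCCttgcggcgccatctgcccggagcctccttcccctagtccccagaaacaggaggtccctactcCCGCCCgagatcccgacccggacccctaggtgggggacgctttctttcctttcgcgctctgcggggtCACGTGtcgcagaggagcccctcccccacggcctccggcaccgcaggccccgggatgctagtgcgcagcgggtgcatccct
PGK1: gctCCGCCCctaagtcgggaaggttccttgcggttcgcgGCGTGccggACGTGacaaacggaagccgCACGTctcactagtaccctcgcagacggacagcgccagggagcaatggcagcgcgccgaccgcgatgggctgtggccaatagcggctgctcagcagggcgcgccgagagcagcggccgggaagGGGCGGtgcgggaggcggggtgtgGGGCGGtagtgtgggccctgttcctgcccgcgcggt

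The windows of GAPDH and PGK1 hold 2 and 3 GC boxes and 2 and 3 hypoxia cores, and those of ENO2 hold 2 and 1, so both sequences were present before genes that differed little and before lower ones. EPAS1, the gene that was raised most, has 7 GC boxes. The window of PDK1 has neither sequence and a GC content of 35.6%, against a median of 69.6% over the 35 genes. A single window stood for each gene and was not matched to the transcript of its probe. Whether the measured PDK1 transcript starts at this window was therefore not established. Among the 12 genes that were down-regulated at 80 nM and had a window, 11 held a GC box (91.7%) and 9 a hypoxia core. Of the 18 that were not called, 12 held a GC box (66.7%) and 10 a hypoxia core (55.6%). All 3 of the up-regulated genes with a window, SLC16A3, EPAS1 and BHLHE40, held a GC box. No difference between these shares was tested, and a match of letters is not a binding site.

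At 80 nM, 13 of the 37 genes were down-regulated and 4 up-regulated, whereas at 8 nM 4 were down-regulated and none up-regulated (0). At an unadjusted limma p under 0.05 alone, 8 were higher and 14 lower at 8 nM, where 14.5% of all genes were higher and 16.3% lower. The 8 higher ones were all below the fold limit. A gene was called by the fold limits and the p threshold that the study's methods name, a change of at least 1.5-fold up or to at most 0.67-fold with a limma p under 0.05, here taken unadjusted. By this rule 7.09% of all genes were called at 8 nM, 4.25% up-regulated and 2.84% down-regulated, and among the 37 genes 10.8% were called. At 80 nM 35.1% of all genes were called, 18.8% up-regulated and 16.3% down-regulated, and the members stood at 45.9%, 10.8% and 35.1%. The 13 and 4 calls at 80 nM were also made after Benjamini-Hochberg adjustment over all 21813 genes, when 34.3% of all genes were called (18.4% up-regulated and 15.9% down-regulated). At 8 nM 3 of the 4 remained after adjustment, where 5.13% of all genes were called (3.71% up-regulated and 1.41% down-regulated). The median change of the 37 genes was -0.06 at 8 nM and -0.29 at 80 nM, and the medians over all genes were -0.06 and 0.08. All 3 arrays at 80 nM lay below all untreated arrays in 19 genes (51.4%) and above them in 10 (27%), where 31.7% and 40.3% of all genes did. On 34 genes that were well above background on all 9 arrays, 3 were up-regulated and 11 down-regulated at 80 nM, where 17.2% and 13.9% of all 18829 such genes were. The other 3, ENO2, EGLN3 and NDRG1, passed the filter on dim probes only through the groups in which they were brighter. With arrays scaled to the spike-in probes, 18 of the 37 were down-regulated and 3 up-regulated at 80 nM, where 26.2% and 10.2% of all genes were on that scale. At 8 nM it gave 2 and 1 (1.49% and 5.52% of all genes), and quantile normalization gave 3 and 1.

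**Figure D1:**
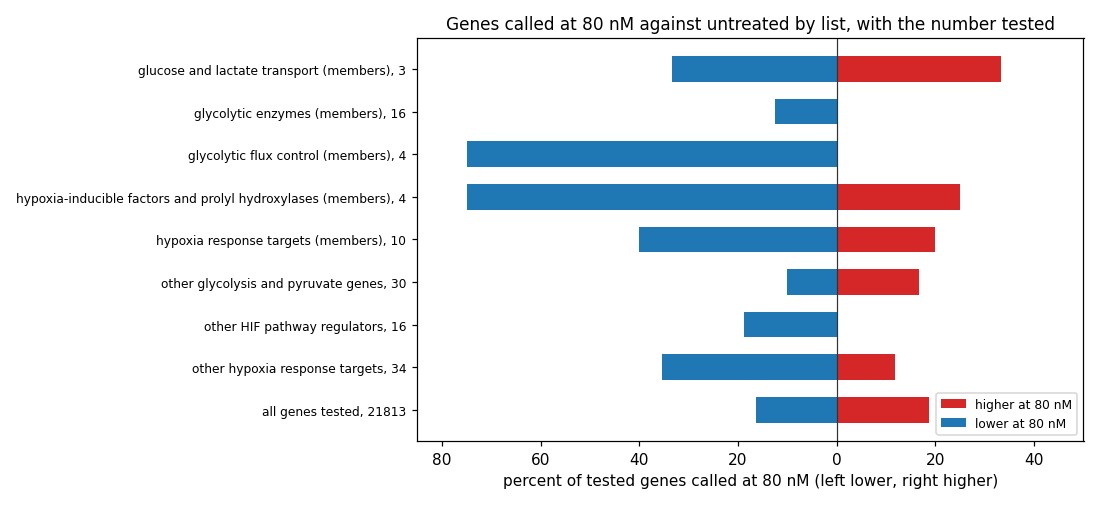
Percent of the tested genes of each list that were called at 80 nM against untreated, to the right if higher and to the left if lower, with the number tested behind each name. The 16 enzymes tested had 2 lower and no higher calls, and the 4 genes of flux control had 3 lower ones, beside 16.3% lower and 18.8% higher over all genes.

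Of the 3 carriers, the main glucose carrier was lower at both concentrations and the lactate carrier was lower at 8 nM and higher at 80 nM. SLC2A1 (NM_006516), which encodes the glucose carrier GLUT-1 found in most cells, lay at 1.68, 1.5 and 1.59 in untreated cells, at 0.97, 1.08 and 0.88 at 8 nM and at 0.38, 0.29 and 0.34 at 80 nM. The groups did not overlap and each step of concentration was lower. For 8 nM the change was -0.61 (standard error 0.08, adjusted p = 0.0023; every adjusted p given is from limma, with the Benjamini-Hochberg method) and for 80 nM it was -1.25 (adjusted p = 5.1e-06), a 2.38-fold fall. The call at 8 nM is close to the fold limit, and without untreated replicate 1 or without 8 nM replicate 3 the change was -0.57 and -0.56, under that limit, with adjusted p = 0.0099 and 0.011. On the spike-in scale it was -0.54 (adjusted p = 0.35).

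SLC16A3 (NM_001042422) encodes MCT4, the carrier through which glycolytic cells release lactate. Its levels were 2.66, 1.79 and 2.09 in untreated cells, 1.64, 1.61 and 1.26 at 8 nM and 2.82, 2.89 and 2.94 at 80 nM. All arrays of 8 nM were below, and all of 80 nM above, the untreated arrays, which were themselves widely spread (SD 0.44). The changes were -0.68 (standard error 0.21, adjusted p = 0.065) and 0.71 (adjusted p = 0.018), and 80 nM was higher than 8 nM by 1.38 (adjusted p = 0.00064). The call at 8 nM was lost without untreated replicate 1 (-0.44), and without 8 nM replicate 3 (-0.56). The call at 80 nM was lost without untreated replicate 2 (0.51, adjusted p = 0.051) and on the spike-in scale (0.43, adjusted p = 0.15). SLC2A3 (NM_006931), the glucose carrier with high affinity known from neurons, changed by -0.19 at 8 nM and -0.41 at 80 nM (adjusted p = 0.014), under the fold limit. Its second, dimmer probe gave -0.10 and -0.68, and the latter passed the fold limit and the unadjusted p threshold but not the one after adjustment over probes (adjusted p = 0.067), so the probes of SLC2A3 differ in the call.

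**Figure D2:**
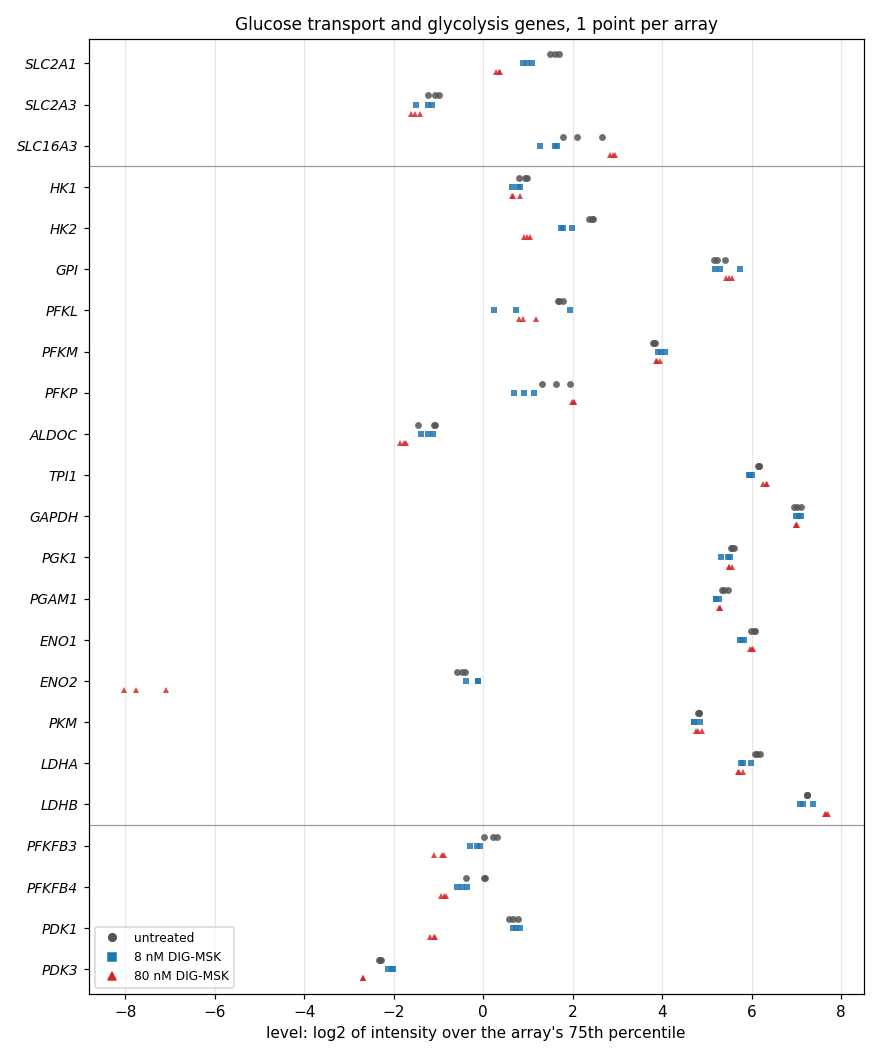
Level of each gene of transport, glycolysis and flux control on each of the 9 arrays, as log2 of the intensity over the 75th percentile of the array; rows are genes, in 3 blocks by role, and each point is 1 array. The 80 nM arrays of HK2, SLC2A1, PFKFB3 and PDK1 lie to the left of all the others of the gene, those of ENO2 lie between -8.03 and -7.10, and the points of GAPDH, PGK1, PKM and ENO1 lie close together.

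Most enzymes of the central pathway changed little. Of the 16 tested, 2 were called at 8 nM, HK2 and PFKP, and 2 at 80 nM, HK2 and ENO2, all of them down-regulated. These are 12.5% at each concentration, where 2.84% and 16.3% of all genes were down-regulated. No enzyme was up-regulated at either concentration, although 1 at 8 nM and 3 at 80 nM were higher at an unadjusted limma p under 0.05 (at 80 nM 35.7% of all genes were), and the median change was -0.15 at 8 nM and -0.04 at 80 nM. HK2 (NM_000189), the hexokinase on the mitochondrial surface that is raised in many tumours and adds the first phosphate to glucose, had levels of 2.44, 2.37 and 2.43 in untreated cells. They were 1.77, 1.97 and 1.74 at 8 nM and 0.91, 1.04 and 0.98 at 80 nM. The 3 groups were well apart, and the change against untreated cells was -0.59 for 8 nM (standard error 0.08, adjusted p = 0.0030) and -1.44 for 80 nM (adjusted p = 2.6e-06), a 2.71-fold fall. At 8 nM the change was at the fold limit of 1.5, and it fell just under it, at -0.58 to -0.54, without untreated replicate 1 or 3 or without 8 nM replicate 1 or 3, at -0.53 with quantile normalization and with the authors' values, and at -0.51 on the spike-in scale (adjusted p = 0.40). A further HK2 probe was too dim to be kept. HK1 (NM_033500), the widespread hexokinase, changed by -0.16 and -0.20, and its groups overlapped at both concentrations.

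ENO2 (NM_001975) encodes the gamma enolase of neurons, one of the forms of the enzyme that makes phosphoenolpyruvate. Its levels were -0.58, -0.41 and -0.47 in untreated cells and -0.39, -0.13 and -0.13 at 8 nM. At 80 nM they were -7.10, -8.03 and -7.76, and the probe was not well above background on any of those 3 arrays. Only a bound can therefore be given, set by the dimmest signal that still counted as well above background on each of the 80 nM arrays. By it ENO2 was 42.8-fold lower at 80 nM than in untreated cells (5.42 on the log2 scale), and the bound itself was not tested. A probe can be brighter than that signal and still not be well above background, as EGLN3 was at -5.34 on 80 nM replicate 3. This bound, and those given below for other genes, are therefore not strict minimums. The fitted change at 80 nM, -7.14 (adjusted p = 8.4e-08), rests on 80 nM values at background. It was -3.40 with normexp and -4.23 with the authors' log2 values, both smaller falls than the bound. At 8 nM its change was 0.27 (standard error 0.21, adjusted p = 0.42), with all 3 arrays above the untreated ones. ENO1 (NM_001428), the enolase of most tissues, changed by -0.25 at 8 nM (standard error 0.06, adjusted p = 0.035, all 3 arrays lower) and by -0.03 at 80 nM.

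The phosphofructokinases, which make the committed step of glycolysis, differed among themselves. PFKP (NM_002627), the platelet form, lay at 1.94, 1.31 and 1.63 in untreated cells, at 1.14, 0.91 and 0.69 at 8 nM and at 1.98, 2.03 and 2.02 at 80 nM. It was down-regulated at 8 nM, with a change of -0.71 (standard error 0.16, adjusted p = 0.025), and its change at 80 nM was 0.38 (adjusted p = 0.074). Its second probe gave -0.68 and 0.29, and without untreated replicate 1 the change at 8 nM was -0.56, under the fold limit. PFKL (NM_002626), the liver form, lay at 1.70, 1.78 and 1.66 in untreated cells and at 1.93, 0.23 and 0.74 at 8 nM, so that 8 nM replicate 1 stood apart from the other two. At 80 nM it lay at 0.89, 1.18 and 0.79, below every untreated array. Its changes of -0.74 and -0.76 (standard error 0.36, adjusted p = 0.20 and 0.11) did not pass. Without 8 nM replicate 1 the 8 nM change was -1.22 (adjusted p = 0.0071), and with only the untreated and 80 nM arrays in the fit the 80 nM change passed (adjusted p = 0.0017). PFKM (NM_000289), the muscle form, changed by 0.16 and 0.07.

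The enzymes between aldolase and pyruvate kinase other than ENO2 had changes between -0.57 and 0.14 at 80 nM. ALDOC (NM_005165), the aldolase of brain, had the largest of these, from -1.11, -1.46 and -1.09 in untreated cells to -1.78, -1.86 and -1.72 at 80 nM. Its change of -0.57 (standard error 0.12, adjusted p = 0.0034) was 1.48-fold, just under the fold limit, and passed it without untreated replicate 2 (-0.69) or without 80 nM replicate 3 (-0.60). GAPDH (NM_002046), which oxidises glyceraldehyde phosphate and serves as a reference gene in many assays, changed by 0.02 and -0.03, or by 0.10 and -0.31 on the spike-in scale. PGK1 (NM_000291) and PKM (NM_182470), the kinases that make ATP in glycolysis, changed by -0.14 and -0.06 at 8 nM and by -0.05 and 0.00 at 80 nM. TPI1 (NM_000365), which interconverts the triose phosphates, changed by -0.19 at 8 nM and 0.14 at 80 nM. PGAM1 (NM_002629), the mutase of phosphoglycerate, changed by -0.17 and -0.11, and its second probe by -0.31 and 0.23. GPI (NM_000175), the isomerase of glucose phosphate, changed by 0.14 and 0.24. None of these passed both the fold limit and the p threshold.

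By the brighter probe of each, which represented the gene, the lactate dehydrogenase subunits moved apart at 80 nM by changes below the fold limit. LDHA (NM_005566), the subunit linked to lactate formation, lay at 6.19, 6.07 and 6.12 in untreated cells and at 5.71, 5.69 and 5.81 at 80 nM, a change of -0.39 (standard error 0.08, adjusted p = 0.0035). Its other, dimmer probe gave 0.04, so the probes of LDHA disagree. LDHB (NM_002300), the subunit of heart, lay at 7.24 on each untreated array and at 7.63, 7.66 and 7.71 at 80 nM, a change of 0.42 (standard error 0.08, adjusted p = 0.0026). Its second probe gave 0.69 (adjusted p = 8.5e-05 over probes), past the fold limit. At 8 nM the changes were -0.28 for LDHA and -0.04 for LDHB.

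Of the 4 genes that set the flux into and out of glycolysis, 3 were down-regulated at 80 nM and none was called at 8 nM (0 of 4; 3 had an unadjusted limma p under 0.05, PFKFB3, PFKFB4 and PDK3). Of all genes 16.3% were down-regulated at 80 nM and 7.09% were called at 8 nM. PDK1 (NM_002610), the kinase that turns off pyruvate dehydrogenase and so keeps pyruvate from the mitochondria, lay at 0.57, 0.67 and 0.77 in untreated cells and at 0.67, 0.73 and 0.81 at 8 nM. At 80 nM it lay at -1.09, -1.19 and -1.11. The 80 nM arrays stood apart from the other 6, with a change of -1.80 (standard error 0.08, adjusted p = 6.4e-07), a 3.48-fold fall. The change at 8 nM was 0.06 (adjusted p = 0.61). PDK3 (NM_005391), a kinase of the same family, was at -2.29, -2.34 and -2.30, then at -2.04, -2.14 and -2.02, then at -2.70, -2.68 and -2.68. It changed by 0.24 (adjusted p = 0.038) and -0.38 (adjusted p = 0.0011), both under the fold limit, and was lower at 80 nM than at 8 nM by 1.53-fold.

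PFKFB3 (NM_004566) and PFKFB4 (NM_004567) make and break the fructose bisphosphate that activates phosphofructokinase. PFKFB3 lay at 0.01, 0.21 and 0.30 in untreated cells, at -0.08, -0.30 and -0.15 at 8 nM and at -0.87, -1.11 and -0.93 at 80 nM. All arrays of each concentration were below the untreated ones, with changes of -0.35 (standard error 0.11, adjusted p = 0.065) and -1.14 (adjusted p = 4.3e-05). Its second probe gave larger changes, -0.81 and -1.74, both past the fold limit and the p threshold, and with the mean of both probes the 8 nM change of -0.58 was called. PFKFB4 lay at 0.02, -0.38 and 0.04 in untreated cells and at -0.94, -0.84 and -0.89 at 80 nM, a change of -0.79 (standard error 0.12, adjusted p = 0.00073).

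**Figure D3:**
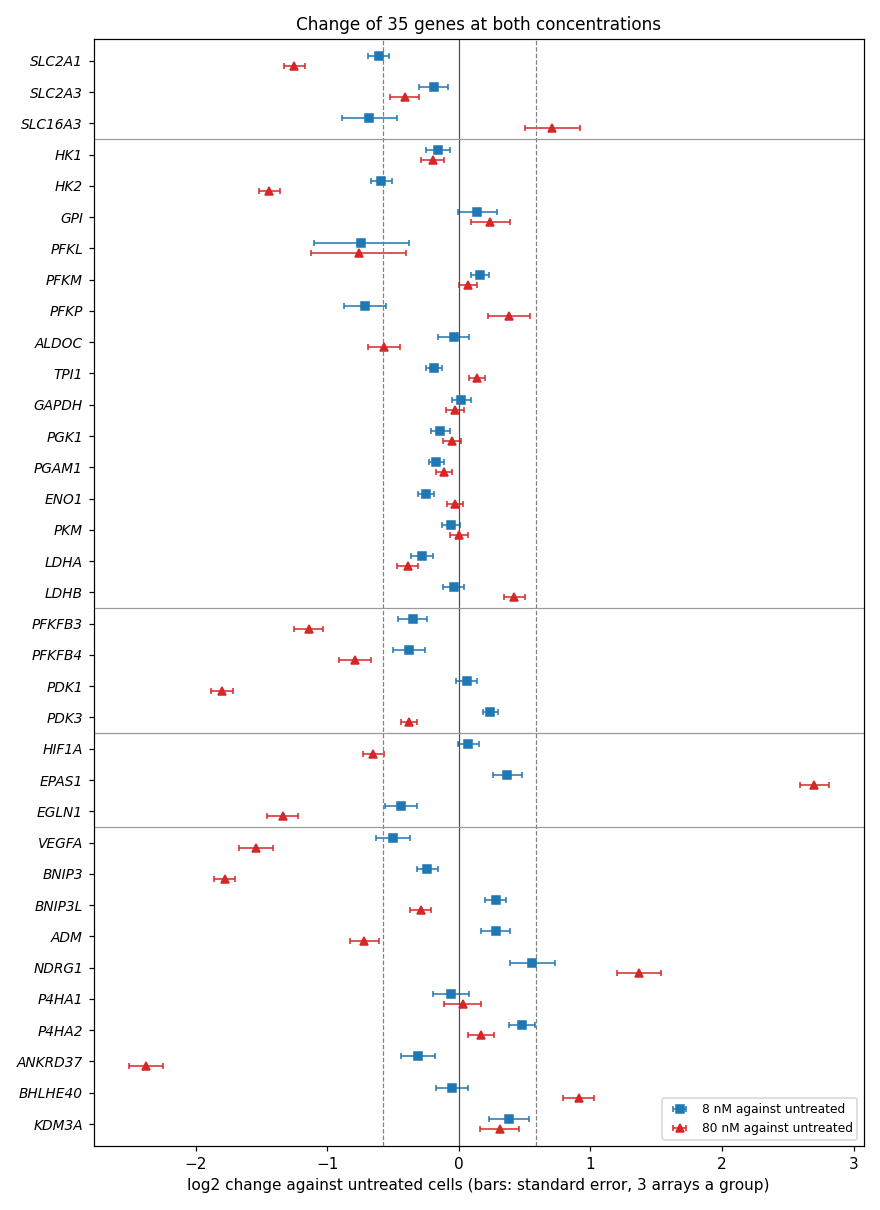
Log2 change of each gene against untreated cells at 8 nM (squares) and 80 nM (triangles), with the standard error from limma as bars and dashed lines at the fold limits; ENO2 and EGLN3 are left out because their 80 nM arrays were not well above background. The largest changes drawn are those of EPAS1, 2.70, and ANKRD37, -2.38, both at 80 nM, and the changes of SLC16A3 and PFKP lie on opposite sides of 0 at the 2 concentrations.

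All 4 genes of the oxygen sensing system were called at 80 nM and none at 8 nM (0 of 4; EPAS1 and EGLN1 had an unadjusted limma p under 0.05). Of all genes 35.1% were called at 80 nM and 7.09% at 8 nM. The call of EGLN3 rests on a probe at background at 80 nM and was lost under several alternatives given below. EPAS1 (NM_001430), which encodes HIF-2 alpha, lay at -5.10, -5.23 and -5.13 in untreated cells, a low level that was still well above background on all 3 arrays. It lay at -5.03, -4.66 and -4.65 at 8 nM and at -2.52, -2.39 and -2.46 at 80 nM. Each group was above the one before it, by 0.37 at 8 nM (standard error 0.11, adjusted p = 0.060) and by 2.70 at 80 nM (adjusted p = 4.7e-07) against untreated cells, the latter a 6.49-fold rise. With a normexp background model, which raises dim signals, the rise at 80 nM was 1.51, and on the spike-in scale 2.42. HIF1A (NM_181054), which encodes HIF-1 alpha, lay at 0.89, 1.07 and 0.98 in untreated cells, at 0.98, 1.13 and 1.03 at 8 nM and at 0.26, 0.30 and 0.43 at 80 nM. It was down-regulated at 80 nM with a change of -0.65 (standard error 0.08, adjusted p = 0.00024), its second probe gave -0.93, and its 8 nM change was 0.07.

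EGLN1 (NM_022051) encodes PHD2, the main prolyl hydroxylase of the hypoxia-inducible factors. Its levels were 2.17, 1.89 and 2.01 in untreated cells, 1.71, 1.36 and 1.68 at 8 nM and 0.58, 0.76 and 0.69 at 80 nM. The groups did not overlap, with changes of -0.44 (standard error 0.12, adjusted p = 0.044, under the fold limit) and -1.34 (adjusted p = 3.1e-05). EGLN3 (NM_022073), which encodes PHD3, was near background throughout. It lay at -5.31, -5.52 and -5.30 in untreated cells and at -5.49, -5.47 and -5.31 at 8 nM, where 1 of the 3 arrays was well above background. At 80 nM it lay at -7.68, -8.18 and -5.34, and no array was well above background. Replicate 3 at 80 nM lay within the range of the untreated arrays, so no bound on the fall is given. The fitted change at 80 nM was -1.69 (adjusted p = 0.042), which was called. This call was lost with normexp (change -0.07), with the authors' log2 values (-0.28), with only the 2 groups in the fit (adjusted p = 0.081), without untreated replicate 1 or 3, and without 80 nM replicate 1 (-1.38) or 2 (-1.13), while without 80 nM replicate 3 the change was -2.55.

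**Figure D4:**
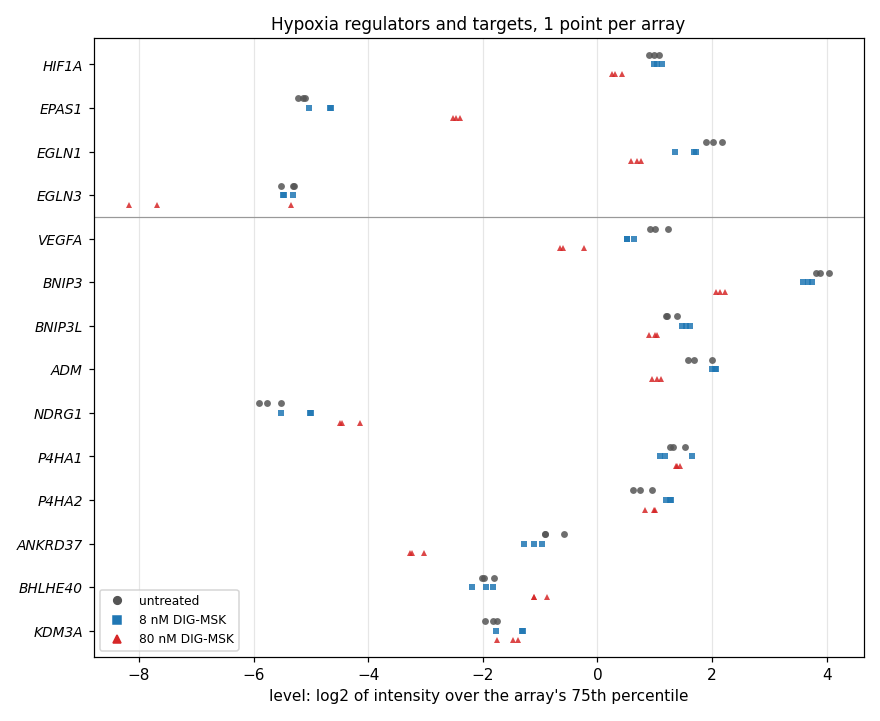
Level of each oxygen sensing gene (upper block) and hypoxia target (lower block) on each of the 9 arrays, as log2 of the intensity over the 75th percentile of the array; each point is 1 array. The 80 nM arrays of EPAS1 lie between -2.52 and -2.39, above all untreated and 8 nM arrays, and those of BNIP3, VEGFA, EGLN1 and ANKRD37 lie below all the others of the gene.

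Of the 10 further hypoxia targets tested, 4 were down-regulated (40%) and 2 up-regulated (20%) at 80 nM, where 16.3% and 18.8% of all genes were. None was called at 8 nM (0 of 10; 5 were higher and 3 lower at an unadjusted limma p under 0.05), where 7.09% of all genes were. ANKRD37 (NM_181726), a small ankyrin repeat gene induced in hypoxia, lay at -0.58, -0.92 and -0.91 in untreated cells, at -0.97, -1.10 and -1.28 at 8 nM and at -3.02, -3.27 and -3.24 at 80 nM. It had the largest measured decrease of the 37 genes, apart from ENO2, whose value is only a bound, with a change of -2.38 (standard error 0.13, adjusted p = 1.9e-06), or 5.19-fold. BNIP3 (NM_004052), a mitochondrial protein that takes part in mitophagy and cell death, lay at 4.03, 3.82 and 3.88, then at 3.75, 3.59 and 3.68, then at 2.22, 2.06 and 2.13. The 80 nM arrays lay far below the other 6, with a change of -1.78 (standard error 0.08, adjusted p = 1.0e-06), a 3.43-fold fall, and the 8 nM change was -0.24 (adjusted p = 0.098). BNIP3L (NM_004331), its homologue, changed by 0.28 and -0.29 (adjusted p = 0.052 and 0.013), under the fold limit, and its second probe by 0.00 and -0.46.

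VEGFA (NM_001025370), the growth factor of blood vessels, lay at 1.23, 0.91 and 1.01 in untreated cells, at 0.52, 0.63 and 0.51 at 8 nM and at -0.65, -0.23 and -0.60 at 80 nM. By this probe it was lower at 8 nM by 1.41-fold (change -0.50, standard error 0.13, adjusted p = 0.038), under the fold limit, and was down-regulated at 80 nM with a change of -1.54 (adjusted p = 2.4e-05). A second, dimmer VEGFA probe, designed on the transcript NM_001025366, lay between -1.29 and -1.08 on all 9 arrays, with changes of 0.07 and 0.01. The probes therefore disagree, and their mean gave -0.77 at 80 nM. ADM (NM_001124), the vasodilator adrenomedullin, lay at 2.00, 1.58 and 1.68 in untreated cells, at 2.06, 2.05 and 2.00 at 8 nM and at 1.10, 1.04 and 0.95 at 80 nM. The 8 nM arrays were level with the highest untreated array or just above it, and the 80 nM arrays were below both, with changes of 0.28 (standard error 0.11, adjusted p = 0.12) and -0.72 (adjusted p = 0.00064).

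The targets that were up-regulated at 80 nM were NDRG1 and BHLHE40. NDRG1 (NM_006096), a stress gene that is commonly used as a readout of hypoxia, was near background, at -5.52, -5.77 and -5.90 in untreated cells with 2 of the 3 arrays well above it. It lay at -5.01, -5.52 and -5.00 at 8 nM and at -4.14, -4.45 and -4.49 at 80 nM. All treated arrays lay at or above the highest untreated array, and the changes were 0.56 (standard error 0.17, adjusted p = 0.066), just under the fold limit (0.66 and past it with quantile normalization), and 1.37 (adjusted p = 0.00022). With normexp the 80 nM change was 0.47 and was not called. At 8 nM it passed without untreated replicate 1 (0.66) and without 8 nM replicate 2 (0.73). BHLHE40 (NM_003670), a basic helix-loop-helix repressor of the circadian clock, lay at -1.81, -2.01 and -1.98 in untreated cells, at -1.82, -2.19 and -1.95 at 8 nM and at -1.10, -1.11 and -0.88 at 80 nM. It changed by -0.05 at 8 nM and rose 1.87-fold at 80 nM, a change of 0.91 (standard error 0.12, adjusted p = 0.00026).

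The collagen prolyl hydroxylases and the histone demethylase of the list were not called. P4HA2 (NM_004199) was higher on all 8 nM arrays, at 1.20, 1.28 and 1.26 against 0.95, 0.62 and 0.74, a change of 0.48 (standard error 0.10, adjusted p = 0.015) that was under the fold limit, and its change at 80 nM was 0.17. P4HA1 (NM_001142595) changed by -0.06 and 0.03. KDM3A (NM_018433), which removes methyl groups from histone H3, changed by 0.38 and 0.31 (adjusted p = 0.13 and 0.11).

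Between the concentrations themselves, 18 of the 37 genes differed, 13 lower and 5 higher at 80 nM than at 8 nM, 48.6% of the genes, where 33.6% of all genes did (14.2% lower and 19.4% higher). All 18 passed after adjustment too, when 32.8% of all genes did (13.9% lower and 18.9% higher). On the 34 genes well above background on all 9 arrays, 11 were lower and 4 higher, where 11.9% and 17.1% of all 18829 such genes were. The 5 that were higher at 80 nM were EPAS1, SLC16A3, PFKP, BHLHE40 and NDRG1. PFKP was the only one of these that had not been called against untreated cells at 80 nM, and it was higher than at 8 nM by 1.10 (standard error 0.16, adjusted p = 0.00066). The largest falls from 8 to 80 nM, apart from ENO2 (51.6-fold by its bound), were those of ANKRD37, -2.06, PDK1, -1.86, and BNIP3, -1.54. EGLN3 counts among the 13 lower genes, but it was well above background on 1 of the 3 arrays at 8 nM and on none at 80 nM, so no size is given for it. ADM was lower at 80 nM than at 8 nM by 2.01-fold and HIF1A by 1.65-fold. For SLC2A1, HK2, EGLN1 and PFKFB3 the step from 8 to 80 nM was -0.64, -0.85, -0.90 and -0.79, beside changes at 8 nM of -0.61, -0.59, -0.44 and -0.35. The comparisons with untreated cells share the 3 untreated arrays, and this one spans both slides. The difference of NDRG1 was not called with normexp (0.35), with the authors' values (0.37) or on the spike-in scale (0.45), and that of VEGFA not with the mean of its probes (-0.55). That of EGLN3 was not called with normexp (-0.03, adjusted p = 0.92), with the authors' values (-0.27, adjusted p = 0.33), with only the 2 groups in the fit (adjusted p = 0.093), or when any of the 8 nM arrays, or 80 nM replicate 1 or 2, was left out.

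Ratios of related genes were taken within each array, where the scaling of the array drops out, and were set against their mean in untreated cells. The ratio of HIF1A to EPAS1 had a shift of -3.35 on the log2 scale at 80 nM (mean log2 ratios of 6.13 ± 0.16 in untreated cells and 2.78 ± 0.10 at 80 nM, SD, n = 3), and its 8 nM arrays overlapped the untreated ones. HK1 over HK2 was higher on all arrays of both concentrations, by 0.42 and 1.24. BNIP3 over BNIP3L was lower on all treated arrays, with shifts of -0.52 and -1.49. PDK1 over PDK3 had a shift of -1.42 at 80 nM, with overlap at 8 nM. LDHA over LDHB had shifts of -0.24 and -0.82, and SLC2A1 over SLC2A3 of -0.42 and -0.85, with all treated arrays below the untreated ones. P4HA1 over P4HA2 was lower on all 8 nM arrays, with a shift of -0.54, and overlapped at 80 nM. Such a ratio shows that the 2 genes changed unequally and says nothing on which of them did.

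**Figure D5:**
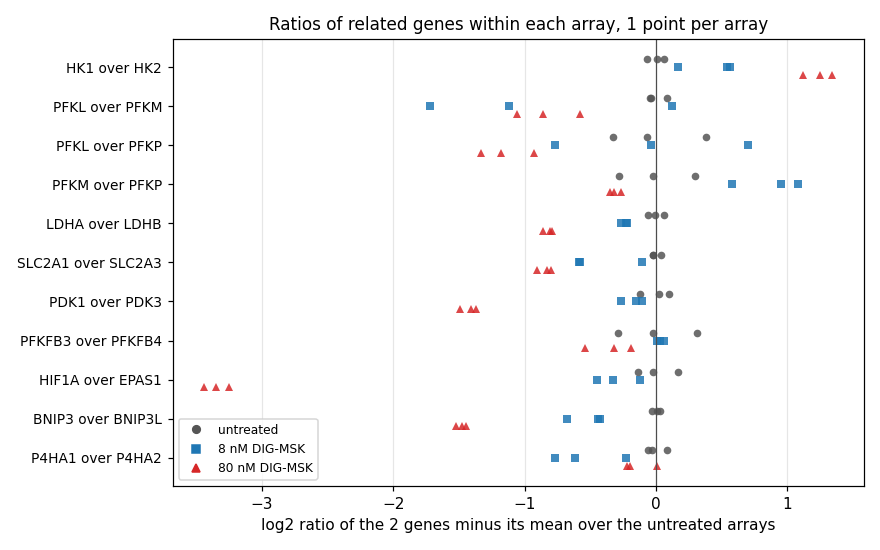
Log2 ratio of 11 pairs of related genes within each array, minus the mean of that ratio over the 3 untreated arrays; each point is 1 array, and pairs with a gene at background in a group are left out. The 80 nM points of HIF1A over EPAS1 lie near -3.35, those of BNIP3 over BNIP3L near -1.49 and of PDK1 over PDK3 near -1.42, and those of HK1 over HK2 near 1.24.

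Further genes of the same pathways were taken from 3 lists. Of 30 other genes of glycolysis and pyruvate use that were tested, 5 were up-regulated and 3 down-regulated at 80 nM (16.7% and 10%, where 18.8% and 16.3% of all genes were), and 1 each at 8 nM (3.33%, where 4.25% and 2.84% were). On the spike-in scale 2 and 5 were called at 80 nM, and ADPGK (0.59 on the main scale, 0.31 on the spike-in scale), PFKFB2 (0.63 and 0.35) and SLC2A10 lost their call. PDP2, a phosphatase that turns pyruvate dehydrogenase on, changed by 1.22 at 80 nM. TIGAR, a phosphatase that lowers the fructose bisphosphate that activates phosphofructokinase, changed by 1.16. SLC2A10, a glucose carrier, changed by 0.85 (0.57 on the spike-in scale). ENO3, the enolase of muscle, changed by -1.16, and MPC1, a subunit of the mitochondrial pyruvate carrier, by -0.85. At 8 nM HKDC1, a hexokinase domain protein, changed by -1.17 (adjusted p = 0.015), and LDHD, a dehydrogenase of D-lactate, by 0.82 (adjusted p = 0.0053). On the spike-in scale both kept these calls by the unadjusted p only (adjusted p = 0.2 and 0.077).

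Of 16 other regulators of the hypoxia-inducible factors none was up-regulated (0, with 5 higher at an unadjusted limma p under 0.05) and 3 were down-regulated at 80 nM, 18.8%, near the 16.3% of all genes. Among the 15 that were well above background on all 9 arrays 1 was down-regulated (6.67%, beside 13.9% of all such genes). On the spike-in scale 5 of the 16 were (31.2%, beside 26.2%). CREBBP, a coactivator of HIF with acetylase activity, changed by -1.19 (adjusted p = 2.8e-05). ARNT2, a partner of HIF alpha subunits in neurons, was not well above background at 80 nM. Its untreated mean of -5.27 was close to background, so no size is given for its fall. At 8 nM it was up-regulated with a change of 0.66 (adjusted p = 0.020, and 0.086 on the spike-in scale). The third was CITED2, which competes with HIF for that coactivator, with a change of -3.65 and widely spread 80 nM arrays (SD 1.62). Of 34 other hypoxia targets tested, 12 were down-regulated and 4 up-regulated at 80 nM, 35.3% and 11.8%, beside 16.3% and 18.8% of all genes. Among the 30 that were well above background on all 9 arrays these counts were 10 and 2 (33.3% and 6.67%, beside 13.9% and 17.2%). AK4, a mitochondrial adenylate kinase, had a level of 2.83 ± 0.15 (SD, n = 3) in untreated cells, against 2.43 ± 0.05 at 8 nM, and of -0.53 ± 0.01 at 80 nM, a change of -3.36 (adjusted p = 3.8e-08). INSIG2, a brake on sterol synthesis, changed by -3.14, and VEGFC, the growth factor of lymph vessels, by -2.75. GBE1, the branching enzyme of glycogen, rose by 1.42, and TFRC, the transferrin receptor, by 0.85, which was 0.57 and not called on the spike-in scale. CXCR4, a chemokine receptor, and LOX, which crosslinks collagen, were at background at 80 nM and were 48.1-fold and 7.56-fold lower by such a bound. ANG, angiogenin, was at background in untreated cells and 3.86-fold higher at 80 nM by such a bound. EPO, erythropoietin, was likewise at background in untreated cells. It was called up-regulated at 80 nM, but its mean of -5.53 there was close to background, so no size is given. At 8 nM 1 of the 34 was called, KDM4B, a histone demethylase, with a change of -0.78 (adjusted p = 0.00043). On the spike-in scale its 8 nM change was -0.71, called by the unadjusted p only (adjusted p = 0.17). Its change at 80 nM was -2.03.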

How the data were processed

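RNA of 9 A2780 cultures, 3 per group, was labeled with Cy3 and hybridized one by one to Agilent human expression arrays. The study's methods call the cultures independent biological replicates and name another labeling kit than the labels do. The authors deposited the spot intensity of each array from Feature Extraction 10.7.3.1, corrected for background and not scaled between arrays, and a table of log2 values that tracked the log2 median signal (correlations of 0.99856 to 0.99981) and was used as an alternative only.

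Here flagged and control spots were left out, spots of a probe were averaged, and the log2 intensity was centred on the 75th percentile of gene spots, which lay between 831.7 and 1170. The 26433 probes that were well above background in each of the 3 arrays of some group were kept. A gene was represented by its probe of highest mean level; 9 of the genes described had more than 1. Names came from RefSeq transcripts of GRCh38.p14, through which 25715 of 27245 RefSeq probes were named. Linear models of limma 3.58.1 (R 4.3.3) with moderated variances were fitted over all 9 arrays, with Benjamini-Hochberg adjustment over 21813 genes, and the procedure was tested on simulated data. The number of arrays limits the precision. No gene probe was saturated, and no arrays held identical values (0 pairs); correlations within groups were 0.9838 to 0.9906.

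Same-numbered untreated and 8 nM arrays deviated together (correlations 0.113, 0.101 and 0.162), so a replicate block was fitted as an alternative; those of 80 nM did not (-0.009, -0.082 and -0.003 with untreated arrays).

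The genes, the lists and the rules were chosen with earlier results of these data known. One list and 1 marker gene are not reported here. All genes of the module are described; from other lists, up to 3 genes in each direction are named that were called with adjusted p under 0.05, were well above background in both groups and did not overlap, and others (ARNT2, CITED2, CXCR4, LOX, ANG, EPO, ADPGK, PFKFB2) were named after their values were seen. Alternatives were normexp on the median signal with offset 50, since the mean signal was not in the files used, quantile, median and spike-in scaling, the authors' values, other filters on dim probes, the mean of probes, only the groups compared, the block, adjusted p-values, and leaving out each array. The lists of other genes were counted on the spike-in scale and on genes above background on all arrays after the data were seen.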

Additional observations from a re-analysis of the deposited data

How the results depend on the processing

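The number of the 37 genes called at 80 nM against untreated cells was 17. Over the alternatives it lay between 14 and 21, where the 14 were of only the 34 genes well above background on all 9 arrays. At 80 nM against 8 nM it was 18 and lay between 15 and 21. At 8 nM it was 4, and it lay between 1 and 5 when single arrays were left out. It was 1 without untreated replicate 1, where NDRG1 was called and not the 4, and 1 without 8 nM replicate 3, where PFKP was called; HK2 and SLC2A1 then fell just under the fold limit with adjusted p under 0.05. The replicate block gave 4, 17 and 18 genes for the 3 comparisons, as without it, and with only the untreated and 8 nM arrays it gave 4; it changed no count. The slide as a block could not be fitted, since no slide holds 80 nM arrays with others, while the comparison of 8 nM with untreated cells lies within slide 1.

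No called gene changed its direction under any alternative run. Among the values of single genes, 13 of 626 lost their call at 8 nM and 8 gained one, 10 and 12 of 589 did so at 80 nM, and 14 and 10 of 589 between the concentrations; 22, 10 and 19 uncalled values had another sign. Beside the calls named above, the spike-in scale added ALDOC (-0.85), LDHA (-0.67), PDK3 (-0.66), PFKL (-1.04) and SLC2A3 (-0.69) at 80 nM and removed HK2 (-0.51) and SLC2A1 (-0.54) at 8 nM. PFKL was also called at 80 nM with normexp (-0.79), median scaling (-0.76) and the authors' values (-0.82). BHLHE40 kept its call at 80 nM on the spike-in scale by the unadjusted p only (0.63, adjusted p = 0.075). PDK3 between the concentrations fell to -0.42 with normexp and -0.50 with the authors' values. The cause of these changes was not tested. At 80 nM, genes near background (EGLN3, NDRG1, ENO2) are limited by their signal over background.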
